A study of Mus musculus with 6 samples.

Results

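The genes of the tumour necrosis factor (TNF) ligand and receptor superfamilies were followed in cultured mouse T helper cells, with and without exposure to fine particles. They were taken by symbol: every gene whose name begins with Tnfrsf or Tnfsf, together with Cd27, Cd40, Cd40lg, Cd70, Fas, Fasl, Tnf, Lta, Ltb, Ltbr, Ngfr and Eda2r, which made 45 of the 34745 genes in the table. These are 26 receptor genes, 17 ligand genes, the antisense gene Tnfsf13os and the read-through gene Tnfsfm13. The source was spleen of C57BL/6 females, 6 weeks old, whose naive CD4 T cells were stimulated with antibodies against CD3 and CD28. The medium was the same in both groups and is one that drives differentiation towards Th17 cells. Its cytokines were 20 ng/ml of IL-6, 10 ng/ml of IL-23, 2 ng/ml of TGF-beta and 5 ng/ml of IL-2. Antibodies blocking IFN-gamma and IL-4 were present, each at 5 µg/ml. At 6 h of stimulation the cells received PBS or 100 µg/ml of PM2.5, the fine fraction of airborne dust, and RNA was taken on day 4. Each group has 3 libraries. Whether the 3 libraries of a group came from separate animals or cultures is not given in the sources used here, so p-values measure the spread between these libraries, which may be technical.

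Members of the superfamily work as ligand and receptor pairs at the surface of cells in contact. The ligands are trimers, bound to the membrane or shed from it, and the receptors relay their binding through TRAF adaptors to NF-kB or, where they carry a death domain, to caspases. In T cells one branch (OX40, 4-1BB, GITR, CD27, CD30, HVEM) gives costimulation after activation, while another (Fas and the TRAIL receptor) can end the response.

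The PBS libraries held 19511561 to 22353131 counts and the PM2.5 libraries 25397965 to 27215853, so every PM2.5 library was the deeper. Levels are given as CPM, read counts scaled to library size with TMM factors. Where a gene had no count, its level could still be as high as 0.113 to 0.151 CPM depending on the library (3 counts, counting error only). All 7 T cell markers were detected, with sums of 2780 to 2810 CPM in PBS and 2250 to 2270 CPM in PM2.5. Several members are best known from B cells and myeloid cells, so markers of other cell types were read as well. Of the B cell markers, Ms4a1 had 0 counts in all libraries, Cr2, Cd79a, Pax5 and Cd79b each averaged under 1 CPM in both groups, and the sum of the list (4.38 to 5.39 CPM in PBS, 21.2 to 22.1 CPM in PM2.5) was mostly Ebf1, at 3.52 ± 0.25 against 21.5 ± 0.50 CPM (SD, n = 3). The macrophage and monocyte markers summed to 5.96 to 8.22 against 4.79 to 5.87 CPM with Lyz2 at 0, and the dendritic cell markers to 0.928 to 1.26 against 2.62 to 3.58 CPM with Clec9a and Siglech at 0. Of the tested dendritic cell markers, Zbtb46 rose (log2 fold change 2.54) and Itgax fell (-1.17). The NK cell markers summed to 9.63 to 12.8 against 6.09 to 7.52 CPM, where Klrk1 (-0.63) and Klre1 (-1.78) fell and Eomes rose (3.58). Markers of CD8 and of gamma-delta T cells summed to 79.0 to 81.2 against 35.6 to 39.3 CPM. Among them Cd8a (-0.86), Trdc (-0.97), Tcrg-C1 (-2.62) and Tcrg-C2 (-2.71) fell, while Cd8b1 (0.55) and Cd160 (0.46) rose. The neutrophil markers, nearly all of them Ly6g, summed to 5.19 to 6.14 CPM in PBS and 0.563 to 0.705 CPM in PM2.5, with 4 of 6 at 0. The stromal and endothelial markers, mostly Pecam1, summed to 80.4 to 85.9 against 48.2 to 51.7 CPM, and the erythroid markers to 0.131 to 0.265 against 0.0751 to 0.235 CPM. The part of these other cells in the results below was not tested. In such bulk RNA, fewer cells of a type and less RNA per cell cannot be told apart.

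The superfamily changed in both directions. Among the receptors, Tnfrsf4, the gene of OX40, rose 6.23-fold while Tnfrsf8, the gene of CD30, fell 13.8-fold. Of the ligand genes, Tnfsf11 (RANKL) rose 10.8-fold, Tnfsf14 (LIGHT) 6.08-fold and Tnfsf8 (CD30 ligand) 5.61-fold. Of the 45 genes, 35 passed the filter on low counts, and 17 of these rose and 18 fell at an adjusted p under 0.05 (quasi-likelihood test of edgeR, Benjamini-Hochberg over 12967 genes). In the same test 70.6% of all genes passed, 35.2% higher and 35.3% lower, so a call by itself sets a member little apart from other genes. A change of at least 2-fold was seen for 21 of the 35 members, 12 higher and 9 lower, against 18.9% of all genes tested (6.51% higher and 12.4% lower). The 35 had a median absolute log2 fold change of 1.15, against 0.43 over all genes tested, and a median signed one of -0.29, against -0.01. For 34 of the 35, every library of one group lay beyond every library of the other, against 74.9% of all genes tested. Of the 35, Cd70, Fasl and Tnfrsf19 were over the filter's cutoff in all libraries of PM2.5 only, and Tnfrsf11b in all libraries of PBS only. Cd70, with 0 counts in PBS, could hardly fail to differ, and the filter favoured a difference for Fasl and Tnfrsf19 too. Tnfrsf11b was over the cutoff in PM2.5 replicates 1 and 3 as well (0.939 and 0.684 CPM), so the filter forced less there. The other 31 were above the cutoff of 0.419 CPM in every library of both groups, and 17 of them changed at least 2-fold.

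**Figure D1:**
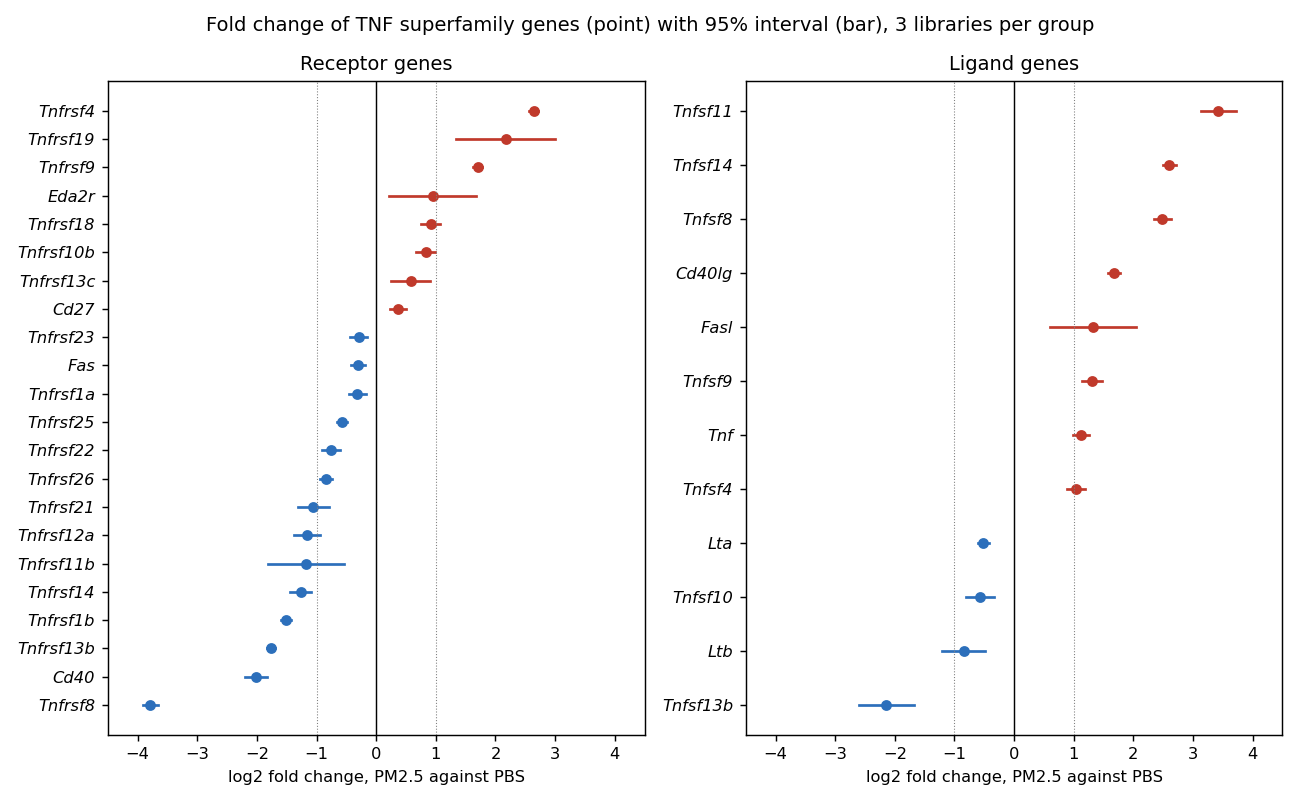
Log2 fold change of each tested receptor and ligand gene in PM2.5 against PBS, with points for the estimate, bars for the 95% interval and dotted lines at a 2-fold change. Receptors run from Tnfrsf8 at -3.79 to Tnfrsf4 at 2.64, and ligands from Tnfsf13b at -2.14 to Tnfsf11 at 3.43; Cd70 is not drawn because it had 0 counts in PBS.

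The counts of receptors and of ligands are given as a description, since the difference between them was not tested. Of 22 receptor genes tested, 8 rose and 14 fell, with a median log2 fold change of -0.45. Of 13 ligand genes tested, 9 rose and 4 fell, with a median of 1.31, and of 1.21 without Cd70. Both medians keep Fasl, which was over the filter's cutoff in all libraries of PM2.5 only. The receptor counts likewise keep Tnfrsf19, over it in all libraries of PM2.5 only, and Tnfrsf11b, over it in all libraries of PBS only. Over all genes tested the shares were 35.2% higher and 35.3% lower. Among the ligands of costimulatory receptors, the 4 tested genes with counts in both groups rose, and Cd70 was tested only through its PM2.5 libraries. Of the 7 costimulatory receptors 4 rose and 3 fell.

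The costimulatory receptors held the largest rise and the largest fall among the receptors. Tnfrsf4, whose product OX40 prolongs the survival of activated CD4 T cells (ENSMUSG00000029075, mm10 chromosome 4, 156013843 to 156016612), stood at 139, 142 and 151 CPM in the PBS libraries and at 896, 892 and 912 CPM in the PM2.5 libraries. Each PM2.5 library was far above each PBS library, and the log2 fold change was 2.64 (SE 0.04, adjusted p = 5.37e-12). Tnfrsf9, the gene of 4-1BB, a receptor induced on activated T cells, had 76.3, 80.7 and 78.7 CPM in PBS and 257, 258 and 253 CPM in PM2.5. It rose 3.25-fold with no overlap (log2 fold change 1.70, SE 0.03, adjusted p = 3.82e-11). Tnfrsf18 encodes GITR, which is abundant on regulatory T cells. It had 40.5, 40.1 and 40.8 CPM in PBS and 69.2, 85.4 and 74.3 CPM in PM2.5, a rise of 1.89-fold (log2 fold change 0.91, SE 0.07, adjusted p = 1.92e-06), with more spread in the PM2.5 group than in the control. Cd27, a costimulatory receptor present on naive cells, rose least of the 4, from 28.1, 28.7 and 28.8 CPM to 35.7, 35.1 and 39.4 CPM (1.29-fold, adjusted p = 0.000277).

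The remaining costimulatory receptors fell. Tnfrsf8 (ENSMUSG00000028602, chromosome 4, 145267137 to 145315164) encodes CD30, an activation receptor. It dropped from 156, 153 and 147 CPM in the PBS libraries to 10.4, 11.9 and 10.8 CPM in the PM2.5 libraries, which is -3.79 on the log2 scale (SE 0.06, adjusted p = 7.80e-12). Cd40, best known as the receptor through which T cells help B cells, was measured at 18.9, 19.1 and 19.1 CPM in PBS and at 5.07, 4.78 and 4.31 CPM in PM2.5. The fall was 4.03-fold (log2 fold change -2.01, SE 0.08, adjusted p = 7.52e-09). Of the B cell markers, Ms4a1 was at 0, Cd79b fell (-2.59, adjusted p = 0.000652), Pax5 was at 0.318 and 0.025 CPM without a test, and Ebf1 rose (2.61, adjusted p = 1.03e-09); their part in the fall of Cd40 was not tested. Tnfrsf14, the gene of HVEM, which binds both LIGHT and the inhibitory receptor BTLA, fell 2.41-fold, from 27.3, 25.0 and 29.8 CPM to 11.4, 10.7 and 12.0 CPM (adjusted p = 2.21e-07). In all 3 genes the highest PM2.5 library was below the lowest PBS library.

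**Figure D2:**
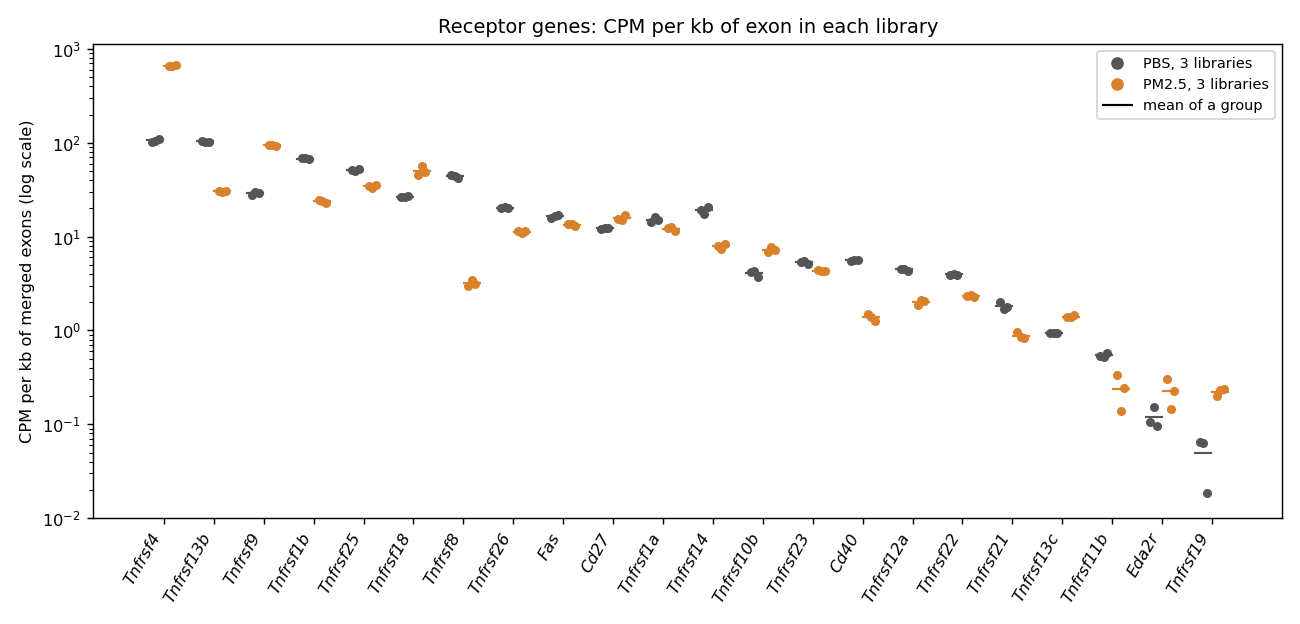
Level of each tested receptor gene in every library, as CPM per kilobase of merged exons on a log axis, with grey points for PBS, orange points for PM2.5 and short lines for group means. Tnfrsf4 reaches 654 to 668 in PM2.5 against 102 to 111 in PBS, and Tnfrsf8 falls from 42.6 to 45.2 in PBS to 3.00 to 3.43 in PM2.5.

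Among receptors with a death domain, 4 of the 5 tested fell and 1 rose, where 35.3% of all genes tested were lower and 35.2% higher. The riser was Tnfrsf10b, the gene of the TRAIL receptor that starts apoptosis (ENSMUSG00000022074, chromosome 14, 69767472 to 69784403). It had 22.8, 23.7 and 20.3 CPM in PBS and 37.4, 42.3 and 38.9 CPM in PM2.5, a rise of 1.78-fold without overlap (log2 fold change 0.83, SE 0.07, adjusted p = 2.78e-06). Fas, the classical death receptor of activated T cells, moved the other way and by less, from 32.5, 34.5 and 35.3 CPM to 28.2, 27.9 and 26.6 CPM (1.24-fold lower, adjusted p = 0.000677). Tnfrsf1a, the gene of the ubiquitous TNF receptor with a death domain, fell by 0.32 on the log2 scale, from 36.8, 42.1 and 38.8 CPM to 31.7, 33.0 and 29.7 CPM (adjusted p = 0.00139). Tnfrsf25 encodes DR3, a T cell receptor for the cytokine TL1A, and was the most abundant of the 5. It fell 1.49-fold, from 116, 113 and 120 CPM to 78.4, 75.1 and 81.1 CPM (adjusted p = 5.19e-07). Tnfrsf21, the gene of DR6, fell 2.08-fold, from 8.17, 6.95 and 7.36 CPM to 3.91, 3.48 and 3.42 CPM (adjusted p = 1.37e-05). Ngfr, the neurotrophin receptor, had 5, 1 and 2 counts in PBS and 0, 0 and 1 in PM2.5 and was not tested.

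Of the receptors of TNF, lymphotoxin and the B cell survival factors, the abundant ones fell. Tnfrsf1b, the gene of TNFR2, which lacks a death domain and is typical of activated and regulatory T cells (ENSMUSG00000028599, chromosome 4, 145213463 to 145246870), had 261, 264 and 254 CPM in PBS and 94.3, 91.4 and 87.1 CPM in PM2.5. The fall was 2.85-fold (log2 fold change -1.51, SE 0.04, adjusted p = 1.88e-10), larger than that of Tnfrsf1a. Tnfrsf13b encodes TACI, known mainly as a receptor of B cells for BAFF and APRIL (ENSMUSG00000010142, chromosome 11, 61126755 to 61149372). It held 295, 291 and 293 CPM in the PBS libraries and 86.1, 85.5 and 87.8 CPM in the PM2.5 libraries, a fall of 3.39-fold (log2 fold change -1.76, SE 0.03, adjusted p = 1.60e-11). Of the B cell markers listed, the highest in PBS was Ebf1, which averaged 3.52 CPM there and 21.5 CPM in PM2.5. The part of B cells in the level of Tnfrsf13b was not tested. Tnfrsf13c, the BAFF receptor gene, was rare, with 44, 38 and 44 counts in PBS and 75, 72 and 74 in PM2.5. It rose 1.49-fold (adjusted p = 0.00453), a call lost with DESeq2 (adjusted p = 0.0623). The gene of BCMA, Tnfrsf17, had 0 counts throughout. Ltbr, the lymphotoxin beta receptor that T cells lack as a rule, had at most 11 counts in a library and was not tested.

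The receptors of bone, tissue repair and ectodermal development were scarce. Tnfrsf12a, the gene of the TWEAK receptor Fn14, fell 2.22-fold, from 8.79, 8.76 and 8.31 CPM to 3.64, 4.03 and 3.94 CPM (adjusted p = 2.06e-06). Tnfrsf11b encodes osteoprotegerin, a soluble decoy for RANKL, and had 34, 29 and 37 counts in PBS against 25, 10 and 17 in PM2.5 (2.25-fold lower in CPM, adjusted p = 0.00395). Tnfrsf19, an orphan receptor of neural and epithelial tissue, had 7, 6 and 2 counts in PBS and 25, 28 and 28 in PM2.5 (4.51-fold higher, adjusted p = 0.000415). Eda2r, the ectodysplasin A2 receptor, had 14, 18 and 13 counts against 48, 22 and 33. It was the only one of the 35 whose groups overlapped in CPM, and its call (adjusted p = 0.0239, 1.93-fold higher) was lost in 6 of 13 alternatives: without PBS replicate 1 (0.0744), without PBS replicate 3 (0.0821), without PM2.5 replicate 1 (0.101), with DESeq2 (0.0796) and with limma on FPKM at either pseudocount (0.0725 and 0.0575). Tnfrsf11a, the gene of RANK, had 5, 2 and 1 counts against 8, 11 and 6 and was not tested.

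The mouse decoy-type receptors lie side by side on chromosome 7 and all 3 fell, where 35.3% of all genes tested were lower. Tnfrsf26 went from 65.2, 66.7 and 64.5 CPM to 37.0, 35.4 and 37.0 CPM (1.80-fold, adjusted p = 4.70e-08), and Tnfrsf22 from 16.6, 16.8 and 16.6 CPM to 9.84, 10.1 and 9.62 CPM (1.69-fold, adjusted p = 2.81e-06). Tnfrsf23 fell least, 1.23-fold, from 21.1, 21.8 and 20.2 CPM to 17.6, 16.8 and 17 CPM (adjusted p = 0.00177). Tnfrsf22 and Tnfrsf23 encode decoy receptors for TRAIL and are close copies. In GENCODE M21, 27.4% of the 50-base stretches of the Tnfrsf22 transcripts also occur in another gene, chiefly Tnfrsf23, and 18% of those of Tnfrsf23, so the split of reads between this pair is uncertain.

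Among the ligands of the costimulatory receptors, Tnfsf8 encodes the CD30 ligand (ENSMUSG00000028362, chromosome 4, 63831308 to 63861347). It rose from 15.8, 19.1 and 17.8 CPM to 96.6, 97.4 and 102 CPM (log2 fold change 2.49, SE 0.07, adjusted p = 2.92e-10), opposite to its receptor gene Tnfrsf8. Cd40lg, the CD40 ligand by which helper T cells license B cells and dendritic cells (ENSMUSG00000031132, chromosome X, 57212143 to 57224042), rose from 23.4, 24.5 and 24.9 CPM to 77.5, 78.6 and 76.8 CPM. This was a 3.20-fold rise (log2 fold change 1.68, SE 0.05, adjusted p = 3.78e-10) with little spread inside either group. Cd70, the ligand of CD27, had 0 counts in each PBS library and 65, 75 and 78 in the PM2.5 libraries. Its level in PM2.5 was 2.44, 2.94 and 3.14 CPM, at least 62.0-fold higher than a floor of 3 counts over the PBS group (adjusted p = 1.21e-06). Tnfsf9, the 4-1BB ligand gene, rose 2.47-fold, from 7.86, 7.91 and 7.18 CPM to 18.5, 19.9 and 18.4 CPM (adjusted p = 1.07e-07). Tnfsf4, the OX40 ligand gene, rose 2.05-fold, from 11.4, 11.1 and 11.5 CPM to 24.5, 22.7 and 22.7 CPM (adjusted p = 2.18e-07). Tnfsf15, the gene of TL1A, was below the filter with 4, 0 and 0 counts in PBS and 9, 10 and 13 in PM2.5. Tested with no filter, it was higher in PM2.5 (log2 fold change 2.68, adjusted p = 0.00396). Tnfsf18, the GITR ligand gene, had 0 counts throughout.

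TNF and the lymphotoxins did not move together. Tnf, the founding inflammatory cytokine of the family (ENSMUSG00000024401, chromosome 17, 35199381 to 35202007), rose from 33.8, 33.1 and 37.9 CPM to 73.3, 77.8 and 76.5 CPM (2.17-fold, log2 fold change 1.12, SE 0.06, adjusted p = 4.46e-08). Lta encodes the soluble lymphotoxin alpha and fell 1.43-fold, from 77.9, 80.9 and 76.0 CPM to 53.0, 55.5 and 55.7 CPM (adjusted p = 1.73e-06). Ltb, whose product anchors lymphotoxin to the membrane, fell 1.79-fold, from 142, 115 and 110 CPM to 65.1, 77.3 and 62.1 CPM (adjusted p = 0.00338). Its libraries were less even than those of Tnf and Lta, with PBS replicate 1 above the other PBS libraries and PM2.5 replicate 2 above the other PM2.5 libraries, yet the groups did not overlap. Tnfsf14 encodes LIGHT, which binds HVEM and the lymphotoxin beta receptor (ENSMUSG00000005824, chromosome 17, 57189492 to 57194189). It rose from 17.4, 19.0 and 17.2 CPM to 111, 108 and 108 CPM (log2 fold change 2.60, SE 0.05, adjusted p = 3.41e-11).

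Tnfsf11, the gene of RANKL, which drives osteoclast formation and is known from Th17 cells, rose most among the ligands with counts in both groups. It had 9.54, 8.86 and 6.66 CPM in PBS and 89.8, 93.6 and 85.8 CPM in PM2.5 (ENSMUSG00000022015, chromosome 14, 78277445 to 78308043). The log2 fold change was 3.43 (SE 0.12, adjusted p = 2.09e-07). Tnfsf13b, the gene of the B cell survival factor BAFF, fell 4.41-fold, from 4.64, 4.23 and 4.74 CPM to 1.2, 0.666 and 1.21 CPM (log2 fold change -2.14, SE 0.20, adjusted p = 5.18e-06). It is typical of myeloid cells. The macrophage and monocyte markers, summing to 5.96 to 8.22 against 4.79 to 5.87 CPM, held 2 tested genes, of which Cd68 fell (-0.77, adjusted p = 0.000658) and Fcgr3 rose (1.06, adjusted p = 0.0352). Lyz2 was at 0, Csf1r averaged 0.385 and 0.064 CPM and Cd14 0.164 and 0.351 CPM; the part of such cells was not tested. The death ligands went in opposite directions. Fasl, the Fas ligand gene, was low with 12, 4 and 9 counts against 24, 24 and 26 (2.5-fold higher in CPM, adjusted p = 0.00424), and Tnfsf10, the gene of TRAIL, fell 1.49-fold, from 16.1, 13.9 and 12.9 CPM to 10.6, 9.51 and 8.81 CPM (adjusted p = 0.000613). Tnfsf12, the gene of TWEAK, had 1 count in all libraries together and Tnfsf13, the gene of APRIL, had none. The overlapping genes Tnfsfm13 and Tnfsf13os had at most 3 counts in a library.

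**Figure D3:**
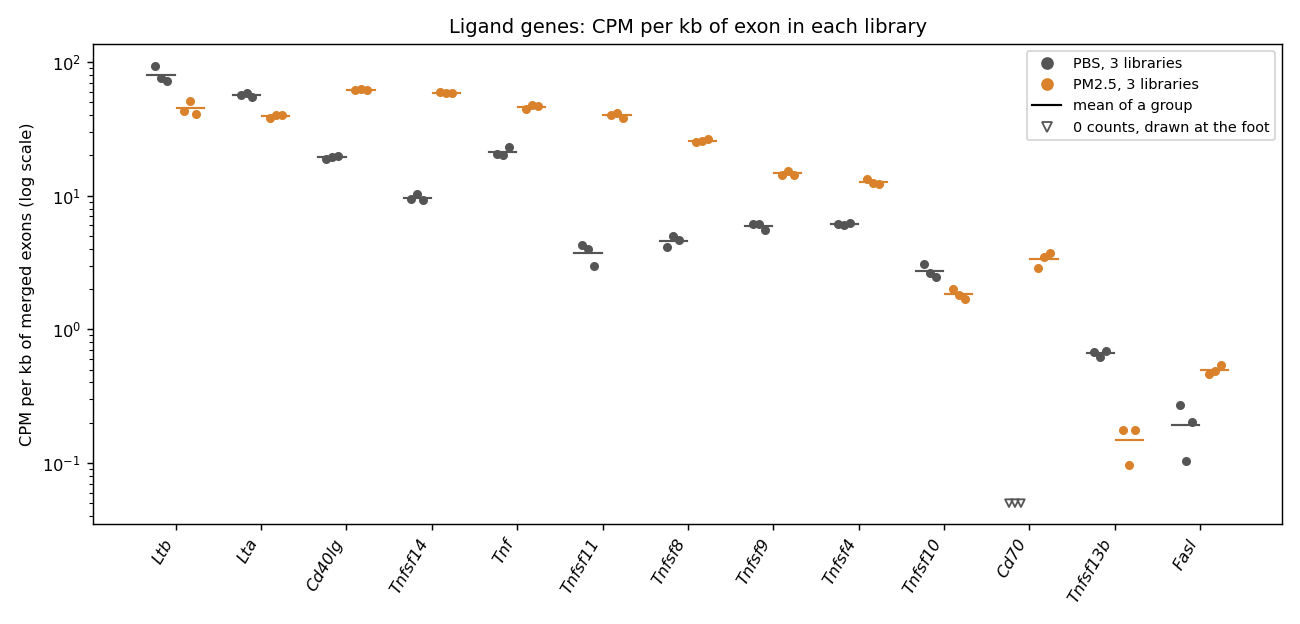
Level of each tested ligand gene in every library, as CPM per kilobase of merged exons on a log axis, with grey points for PBS, orange points for PM2.5, short lines for group means and open triangles for libraries with 0 counts. Ltb and Lta lead in PBS, Cd40lg (61.4 to 62.9) and Tnfsf14 (58.2 to 60.1) lead in PM2.5, and Cd70 appears in PM2.5 only.

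Ligand and receptor genes of the same pair were set side by side for 16 known pairs. Over all genes tested, 35.2% were higher and 35.3% lower. Both members rose in 3 pairs: OX40 ligand and OX40 (log2 fold changes of 1.04 and 2.64), 4-1BB ligand and 4-1BB (1.31 and 1.70), and CD70 with CD27, of which Cd70 had 0 counts in PBS. The ligand gene rose while the receptor gene fell in 6 pairs. These were Tnfsf8 with Tnfrsf8 (2.49 and -3.79), Cd40lg with Cd40 (1.68 and -2.01), Tnfsf14 with Tnfrsf14 (2.60 and -1.27), Fasl with Fas (1.32 and -0.31), and Tnf with each of its receptors Tnfrsf1a (-0.32) and Tnfrsf1b (-1.51). The reverse held for TRAIL and its receptor (-0.57 and 0.83) and for Tnfsf13b with Tnfrsf13c (-2.14 and 0.58), and both fell for Tnfsf13b with Tnfrsf13b. In the other 4 pairs 1 gene was below the filter. The list of pairs was chosen by hand and is incomplete, so the counts describe it only. Tnf and Tnfsf13b each enter it more than once, and Fasl was over the filter's cutoff in all libraries of PM2.5 only. Left out were Lta (-0.52) with Tnfrsf1a and Tnfrsf1b, where all fell. Tnfsf10 also fell with the decoys Tnfrsf22 (-0.76) and Tnfrsf23 (-0.29), and Tnfsf11 rose (3.43) against its decoy Tnfrsf11b (-1.17). Whether both genes of a pair are transcribed in the same cell cannot be read from bulk RNA.

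Levels of different genes were compared per kilobase, as CPM over the merged exon length of each gene in GENCODE M21. In PBS, Tnfrsf4 at 102, 104 and 111 and Tnfrsf13b at 104, 103 and 103 CPM per kilobase lay together at the head of the receptors, with overlapping values. Tnfrsf1b (66.4 to 69.0), Tnfrsf25 (49.6 to 52.6) and Tnfrsf8 (42.6 to 45.2) followed, each apart from the next. In PM2.5 the order was Tnfrsf4 (654 to 668), Tnfrsf9 (92.8 to 94.7), Tnfrsf18 (45.4 to 56.0) and Tnfrsf25 (33.0 to 35.6), and Tnfrsf8 moved from rank 5 to rank 14 of the 26 receptors. Tnfrsf4 alone made up 19.7% ± 0.683 of the summed receptor level in PBS and 67.5% ± 0.476 in PM2.5 (SD, n = 3), and the sum went from 534 to 543 up to 970 to 983 CPM per kilobase. The summed share of the receptors other than Tnfrsf4 was therefore lower in every PM2.5 library than in any PBS library. Single receptors differed in this. The share of Tnfrsf9 rose from 5.25%, 5.525% and 5.329% in PBS to 9.741%, 9.705% and 9.433% in PM2.5. The shares of Tnfrsf13b, Tnfrsf1b and Tnfrsf8 fell.

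Among the ligands, Ltb (72.8 to 93.7) and Lta (55.0 to 58.5 CPM per kilobase) led in PBS, with 38.0% ± 3.40 and 26.8% ± 1.45 of the summed ligand level. In PM2.5 their shares were 12.8% ± 1.19 and 11.3% ± 0.334. Cd40lg (61.4 to 62.9) and Tnfsf14 (58.2 to 60.1) then came first, and Tnf (44.7 to 47.5) and Ltb (40.9 to 51.0) overlapped behind them. The order depends on the gene length used. With the lengths behind the deposited FPKM, Ltb held 21.8% and Lta 35.3% in PBS, so their order was the other way round. In PM2.5, Cd40lg (60.7 FPKM) and Tnfsf14 (57.2 FPKM) still came first. Tnfsf11 (39.2 FPKM) and Lta (38.7 FPKM) followed, above Tnf (24.4 FPKM) and Ltb (19.1 FPKM). Tnfsf8 (25.3 FPKM) overlapped Tnf. Among the receptors, Tnfrsf4 then held 18.2% and 66.7% and remained first in both groups. Tnfrsf1b (67.7 FPKM) stood above Tnfrsf13b (63.3 FPKM) in PBS, and in PM2.5 Tnfrsf1b (22.7 FPKM) and Tnfrsf25 (20.8 FPKM) stood above Tnfrsf18 (19.4 FPKM), the last pair with overlapping values. For 4 of the 42 members with counts, Ltb among them, the length behind the FPKM is longer than the whole gene in the table, and so merged exons were preferred.

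**Figure D4:**
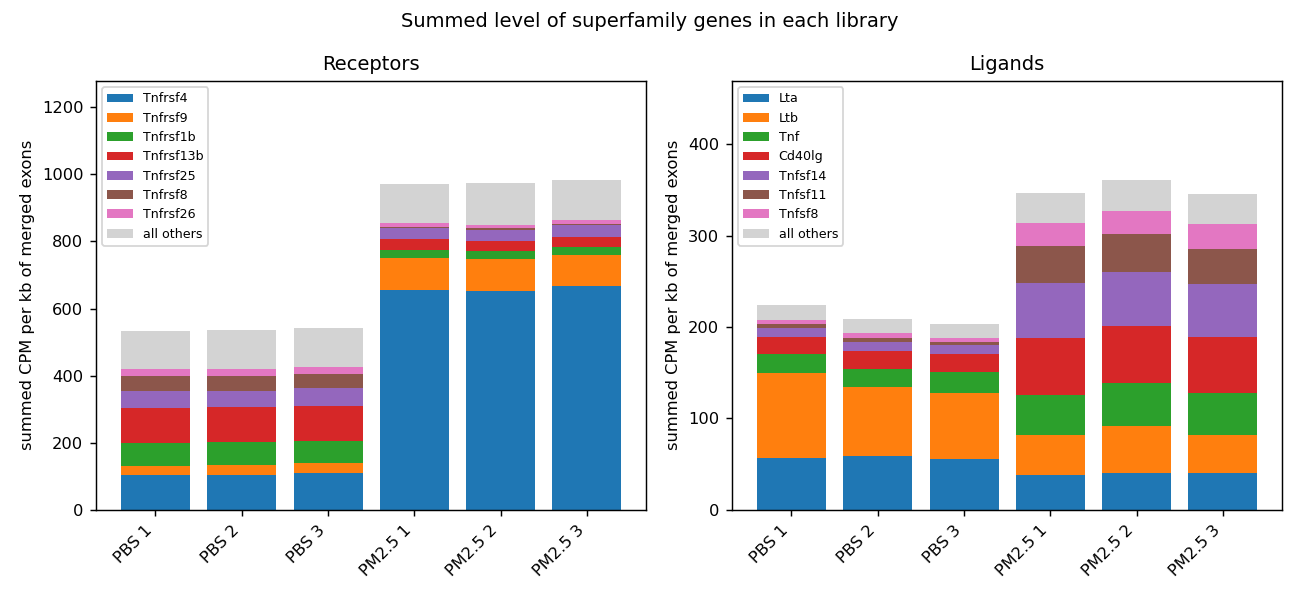
Summed level of the 26 receptor genes (left) and the 17 ligand genes (right) in each library, as stacked bars of CPM per kilobase of merged exons with the leading genes coloured. Tnfrsf4 grows from 19.7% of the receptor bar in PBS to 67.5% in PM2.5, and the ligand bar passes from mostly Ltb and Lta to a mixture with Cd40lg, Tnfsf14 and Tnfsf11.

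Many members sit next to each other in the genome, and neighbours did not always change alike. Tnfrsf4 and Tnfrsf18, both on the plus strand of chromosome 4 and 9551 bases apart with no protein-coding gene between them, both rose (2.64 and 0.91 on the log2 scale). Tnfrsf1b and Tnfrsf8, on the minus strand of the same chromosome and 20266 bases apart with no gene between them, both fell (-1.51 and -3.79). On chromosome 17, Tnfsf9, Cd70 and Tnfsf14 follow each other at gaps of 38239 and 39714 bases, and all 3 rose, Cd70 from 0 counts in PBS. How often neighbours share a direction over all genes was not tested. In the lymphotoxin cluster of the same chromosome, Tnf rose (1.12) although Ltb lies 3060 bases to its left and Lta 1157 bases to its right and both fell (-0.84 and -0.52). The gene models of these 3 do not overlap in the table.

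**Figure D5:**
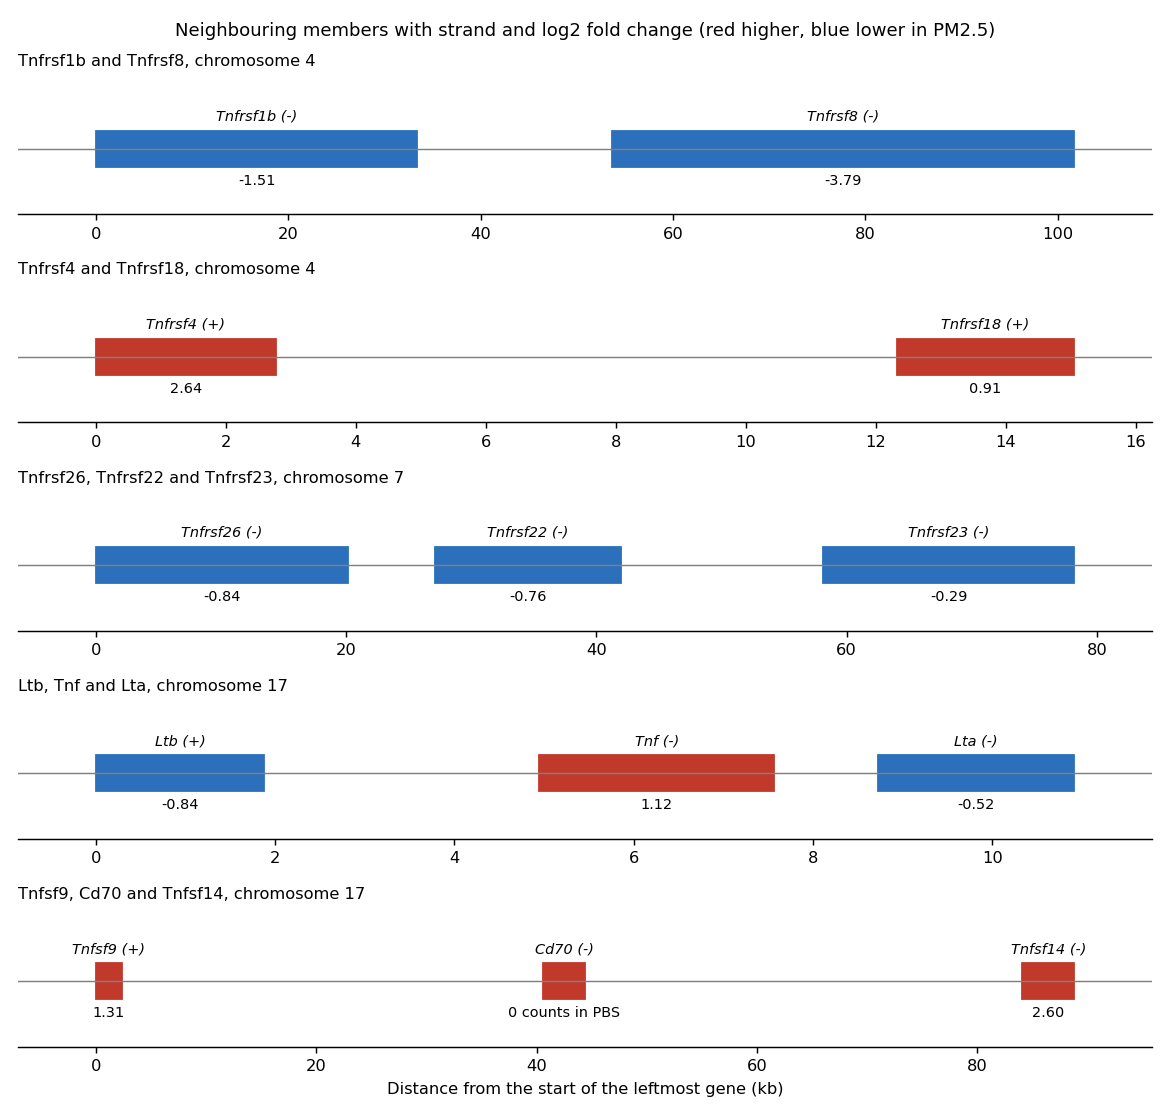
Maps of 5 groups of neighbouring members, drawn to scale as distance in kilobases from the start of the leftmost gene, with the strand above and the log2 fold change in PM2.5 against PBS below each gene (red higher, blue lower). Neighbours share a direction in 4 of the maps, and in the Ltb, Tnf and Lta map Tnf rose (1.12) between 2 genes that fell. Cd70 had 0 counts in PBS, and the split of reads between Tnfrsf22 and Tnfrsf23 is uncertain. How often neighbours share a direction over all genes was not tested.

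The bases upstream of some of these neighbours are given to show what stands before genes that moved together or apart. The sequences are from RefSeq on GRCm38.p6, the 250 bases before the RefSeq start of each gene, read 5′ to 3′ on the strand of the gene. A RefSeq window was found for 34 of the 45 members. Capitals mark matches to the NF-kB consensus motif, to the AP-1 site TGANTCA or to the C/EBP-ATF composite site TGATGNAA, searched on both strands, with overlapping matches joined.
Tnfrsf4, chr4:156013445-156013694, plus strand: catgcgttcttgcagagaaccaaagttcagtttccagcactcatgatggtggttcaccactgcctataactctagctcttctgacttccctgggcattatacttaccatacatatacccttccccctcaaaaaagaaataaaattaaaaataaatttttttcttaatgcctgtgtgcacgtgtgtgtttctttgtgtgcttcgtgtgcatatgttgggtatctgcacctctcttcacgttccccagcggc
Tnfrsf18, chr4:156026072-156026321, plus strand: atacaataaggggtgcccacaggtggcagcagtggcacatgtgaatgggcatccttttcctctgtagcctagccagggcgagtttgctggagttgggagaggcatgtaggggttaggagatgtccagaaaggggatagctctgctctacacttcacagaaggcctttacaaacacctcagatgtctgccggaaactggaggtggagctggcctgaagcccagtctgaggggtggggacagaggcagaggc
Tnfrsf8, chr4:145315165-145315414, minus strand: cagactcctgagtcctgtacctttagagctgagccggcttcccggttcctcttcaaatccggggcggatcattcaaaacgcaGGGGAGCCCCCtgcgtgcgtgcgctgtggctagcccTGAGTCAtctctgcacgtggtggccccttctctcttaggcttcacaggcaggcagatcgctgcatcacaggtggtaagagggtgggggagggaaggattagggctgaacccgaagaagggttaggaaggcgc
Tnfrsf1b, chr4:145246871-145247120, minus strand: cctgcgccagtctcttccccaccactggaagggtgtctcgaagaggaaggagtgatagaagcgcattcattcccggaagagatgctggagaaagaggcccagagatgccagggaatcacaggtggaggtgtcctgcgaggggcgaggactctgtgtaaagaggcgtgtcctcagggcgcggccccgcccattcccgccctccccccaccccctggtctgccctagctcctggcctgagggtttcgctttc
Ltb, chr17:35194257-35194506, plus strand: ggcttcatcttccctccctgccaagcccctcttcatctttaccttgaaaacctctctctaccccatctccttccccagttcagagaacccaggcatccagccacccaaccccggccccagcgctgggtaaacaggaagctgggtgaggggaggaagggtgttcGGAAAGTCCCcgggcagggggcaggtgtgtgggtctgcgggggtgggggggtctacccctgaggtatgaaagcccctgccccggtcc
Tnf, chr17:35202008-35202257, minus strand: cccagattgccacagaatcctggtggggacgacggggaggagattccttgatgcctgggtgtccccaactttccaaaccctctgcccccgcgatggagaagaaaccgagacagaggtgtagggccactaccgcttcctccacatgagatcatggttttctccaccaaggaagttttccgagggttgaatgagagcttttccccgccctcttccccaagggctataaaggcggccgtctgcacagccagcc
Tnfsf14, chr17:57194182-57194431, minus strand: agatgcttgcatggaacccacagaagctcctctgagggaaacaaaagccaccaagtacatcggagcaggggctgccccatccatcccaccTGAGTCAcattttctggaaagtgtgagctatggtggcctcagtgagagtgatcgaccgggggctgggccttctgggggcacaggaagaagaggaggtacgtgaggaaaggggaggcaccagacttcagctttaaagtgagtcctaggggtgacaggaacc
The Ltb window holds an NF-kB match, that of Tnfrsf8 overlapping NF-kB matches and an AP-1 match, and that of Tnfsf14 an AP-1 match, while the windows of Tnfrsf4, Tnfrsf18, Tnfrsf1b and Tnf hold no match to these 3 motifs. The window of Lta, which fell like Ltb, is not printed and holds no match either. Tnfsf9 and Cd70 had no window. Over all 32851 RefSeq windows of this length, 7.25% hold the NF-kB consensus, 6.75% the AP-1 site and 3.45% the composite site. Of the 12 members with a window that rose, 1 holds the NF-kB consensus (Tnfrsf9), 2 the AP-1 site (Tnfrsf9 and Tnfsf14) and 0 the composite site. Of the 14 that fell, the counts are 3 (Ltb, Tnfrsf25 and Tnfrsf8), 3 (Fas, Tnfrsf8 and Tnfsf13b) and 0. These counts are per gene, with a match in any of its windows, while the shares above are per window. Tnfrsf9, Tnfrsf25 and Tnfsf13b each hold their matches in only 1 of their windows. A match is a description of the letters, and its absence says only that they are not in this window. The RefSeq start lies 148 bases from the start of Tnfrsf4 in the table and 158 bases from that of Tnfrsf18. For Tnfrsf9 the start of the window with matches lies 13437 bases from that in the table. The start of its other window, without a match, lies 5593 bases from it.

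The genes that carry the signal inside the cell were read from a list of 48, of which 47 were tested. In this list 22 rose and 12 fell, while 13 missed the threshold. The list had a median log2 fold change of 0.12 and a median absolute one of 0.37, the latter below the 0.43 of all genes tested. The share that passed, 34 of 47, is near the 70.6% of all genes. All 6 genes of NF-kB subunits and their inhibitor rose, by a median of 0.88 on the log2 scale: Rel, the subunit of activated lymphocytes, rose 2.72-fold from 84.2 ± 2.03 to 229 ± 8.81 CPM (SD, n = 3, edgeR adjusted p = 3.03e-10), Nfkb1 2.24-fold and Nfkb2, the precursor of the alternative pathway, 2.11-fold. Of the 6 TRAF adaptor genes 2 rose and 1 fell. Traf2, which joins most costimulatory receptors to NF-kB, rose 1.16-fold (adjusted p = 0.00115). Traf1 (0.12, 95% interval -0.02 to 0.25, adjusted p = 0.102) and Traf3 (-0.04, 95% interval -0.16 to 0.07, adjusted p = 0.460) did not pass. Map3k14, the gene of the kinase NIK of the alternative pathway, fell 1.19-fold (adjusted p = 0.000406).

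Among 10 genes of death signalling 5 rose and 4 fell, where 35.2% of all genes tested were higher and 35.3% lower. Casp8, the initiator caspase of death receptors, fell from 153, 160 and 150 CPM to 96.8, 90.1 and 91.6 CPM (1.66-fold, adjusted p = 6.09e-08). Cflar encodes c-FLIP, which holds caspase-8 in check, and rose from 114, 109 and 124 CPM to 210, 228 and 230 CPM (1.93-fold, adjusted p = 2.67e-07). Bid, which links caspase-8 to mitochondria, rose 2.07-fold from 6.79 ± 0.53 to 14.1 ± 0.97 CPM (adjusted p = 2.56e-06). Ripk1, a kinase at the fork between survival and death, was 1.09-fold higher (adjusted p = 0.0182), but its call was lost in 8 of 14 alternatives. Those included the library totals (0.06 on the log2 scale, adjusted p = 0.197) and leaving out PBS replicate 1, PBS replicate 3 or PM2.5 replicate 1 (adjusted p = 0.0634, 0.0606 and 0.0719).

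The counts here stand beside 35.2% higher and 35.3% lower over all genes tested. Of 12 genes of ubiquitin editing 6 rose and 3 fell. Tnfaip3, the gene of A20, which damps signals from TNF receptors, rose 3.00-fold from 114, 106 and 90.4 CPM to 236, 298 and 398 CPM. The PM2.5 libraries differed widely but all lay above the control (log2 fold change 1.58, SE 0.24, adjusted p = 0.00396). Birc3, a ubiquitin ligase of the receptor complex, rose 1.15-fold (adjusted p = 0.000219), and Tnip2, a partner of A20, fell 2.14-fold (adjusted p = 0.00137). Of the 11 kinase and kinase adaptor genes 2 rose and 4 fell, with the largest change in Map3k5, the stress kinase ASK1, which fell 2.35-fold from 49.8 ± 2.70 to 21.2 ± 0.64 CPM (adjusted p = 2.09e-08). Adam17, the protease that sheds TNF and several receptors from the membrane, rose 1.54-fold from 87.9, 86.5 and 87.0 CPM to 133, 138 and 130 CPM (adjusted p = 8.24e-08).

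Reads of some members can belong to other genes, because the strand setting of the counting is not given. Cd27 overlaps Vamp1, which fell by 0.85 on the log2 scale, and Tnfrsf9 overlaps Camta1, which fell by 0.58, while both members rose. Whether reads of the overlapping genes enter the counts of Cd27 and Tnfrsf9 was not tested. Short stretches of Tnfrsf10b (5.80%), Tnfrsf14 (4.25%) and Cd27 (3.31%) also occur in other transcripts. Tnfrsf18 overlaps the annotated Gm16008, Ltb overlaps Mir6973a, and Tnfrsf22, Tnfrsf23 and Tnfrsf26 overlap E230032D23Rik. Further overlaps are those of Tnfrsf13b with Gm12269, Tnfsf13b with Gm44789, Tnfsf9 with Gm11110 and Fas with Gm27818. Lta overlaps Mir6974 and Tnfrsf19 overlaps Gm41168. What these overlaps add to the counts was not tested.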

How the data were processed

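RNA was measured by RNA-seq in 3 PBS and 3 PM2.5 libraries. Raw counts per gene were deposited by the authors, with coordinates in mm10; TopHat2 2.0.6 is named in the submitters' processing notes, while the sources used here do not give the counting program, the annotation or the strand setting. The deposited FPKM equal the count over the library total and 1 length per gene to within 0.00086% (9540 genes with over 100 counts in every library), and were used only for alternatives and shares.

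Genes were kept with filterByExpr (minimum count 10, minimum total 15), 12967 genes with 99.9% of counts. They were fitted in edgeR 4.0.16 (R 4.3.3) with TMM scaling, robust glmQLFit and glmQLFTest (two-sided) on all 6 libraries. P-values were adjusted by Benjamini-Hochberg over all genes, threshold 0.05. Levels are TMM-scaled CPM. SEs are the log2 fold change over the root of F. The script was tested on simulated data. Alternatives used DESeq2 1.42.0, limma 3.58.1 (pseudocounts 1 and 0.1), other scalings and filters, a replicate block and leaving out each library; the length comparison was added after seeing the data. Replicates differed by more than counting error in a chi-square summed over genes (7.57 to 9.89 per degree of freedom), and each library was kept. All members were named; pathway genes were named where they passed and changed at least 2-fold, with 10 named in any case, and their lists stated in groups. Members and lists were chosen with earlier results of these data known.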

Additional observations from a re-analysis of the deposited data

How the results depend on the processing

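The counts of called members (17 higher and 18 lower) stayed within 1.5 times in all 14 alternatives. The 12 higher and 16 lower with a filter at a mean of 5 CPM came from only 28 members tested, and DESeq2 called 15 and 18. Leaving out single libraries gave 16 to 17 higher and 18 lower. All genes called ranged from 7342 to 9582 against 9149, and 8777 to 8998 without single libraries; pathway genes from 19 to 23 higher and 9 to 15 lower. Of the single values of members under the alternatives, 476 kept direction and call, 7 lost the call (6 of Eda2r, 1 of Tnfrsf13c) and 0 reversed. Traf3 turned to 0.013 without PBS replicate 1 (adjusted p = 0.806, range 0.0811 to 0.806 over its alternatives; -0.0855 to 0.013 without single libraries), and Traf1 passed with the replicate block (0.117, adjusted p = 0.0217) and without PM2.5 replicate 3 (0.158, 0.0456), over 0.0217 to 0.481; the cause was not tested. On log2(FPKM + 1), low genes were drawn together by the pseudocount: Cd40 stood at -1.303, Tnfsf13b at -1.539, Cd70 at 2.099 and Tnfrsf19 at 0.212.

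The replicate numbers are shared between the groups, but same-numbered libraries did not deviate together (correlations 0.0134, 0.0072 and 0.045, against -0.0374 to 0.0235 for other pairs), so the numbers were not taken to pair the samples. With the replicate block 9003 genes were called, with 17 members higher and 18 lower. Ltbr, Ngfr, Tnfrsf11a, Tnfsf12 and Tnfsf15 had too few counts for the filter, and the part of depth in this was not tested.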
